A study of Bos taurus with 8 samples.

Results

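Myostatin (MSTN), its extracellular antagonist follistatin (FST), the inhibin and activin subunits INHA and INHBA, and the intracellular mediator SMAD2 were followed here in bovine skeletal muscle. Of 10 genes of this axis that were looked for, these 5 matched an array probe through the RefSeq transcript given for the probe. The type I receptor ACVR1B, the type II receptors ACVR2A and ACVR2B, the mediator SMAD3 and the inhibitory SMAD7 matched none and were not analysed here. Each of the 5 genes had 1 probe, which was above background in all 16 channel readings, so the filter on dim probes removed no gene of the axis. They stand among 6693 named genes with a probe that passed the filter (17061 probes of 21475).

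The study set the semitendinosus muscle, a hind limb muscle, of well-marbled cattle against that of lean cattle: 4 Holstein-Friesian bulls and 4 Hereford bulls, each against 4 Limousin bulls. All 12 bulls were 15 months old, and no treatment is given in the labels. Each of 8 dual-colour arrays carried RNA of a marbled bull and of a Limousin bull. Holstein-Friesian RNA was labelled with Cy3 against Limousin in Cy5 on 1 slide, Hereford RNA with Cy5 against Limousin in Cy3 on the other, and each Limousin bull was used on both.

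Myostatin is a secreted member of the TGF-beta family made by muscle fibres, and it limits muscle mass; cattle that lack functional myostatin are double-muscled. It and the activins, which are dimers of INHBA or related beta subunits, bind type II receptors, and the paired type I receptor then phosphorylates SMAD2 and SMAD3. Follistatin binds both ligands and keeps them from the receptor. INHA encodes the alpha subunit which, joined to a beta subunit, makes inhibin, a hormone known from the gonads that opposes activin.

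Net of background, the median spot had 30.5 to 46.5 intensity units per array in Holstein-Friesian and 97 to 139 in Hereford, against 63 to 88 in Limousin in Cy3 and 96.5 to 118 in Limousin in Cy5. No spot was saturated, and 6 to 29 outlier spots per array were left out. In levels, breed, dye and slide cannot be told apart. A ratio compares 2 bulls on 1 array. Each marbled breed was always in the same dye, though, so in its ratios breed and dye cannot be told apart. In the difference of Holstein-Friesian minus Hereford, dye and slide differ along with breed. As a further comparison each breed was set against Limousin in the same dye, which lies on the other slide, so there breed and slide cannot be told apart. Each Limousin bull was also set against itself in the other dye, again on the other slide, so there dye and slide cannot be told apart. The same-dye difference is fixed by the ratio and this Limousin difference, so these values are not independent of each other. Precision is limited by the number of arrays. In whole muscle, fewer cells of a type and less RNA per cell cannot be told apart. Probes for skeletal muscle genes (ACTA1, CKM, DES and others, 7 measured) averaged 16.69 to 16.96 on the log2 scale in Holstein-Friesian and 16.96 to 17.09 in Hereford, against 16.64 to 16.73 in Limousin in Cy3 and 16.90 to 17.07 in Limousin in Cy5, so all bulls carried a strong muscle signal.

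In Holstein-Friesian muscle FST rose, and MSTN was lower on all 4 arrays without passing the test. SMAD2 fell in the ratios of Holstein-Friesian over Limousin, but not when both were read in the same dye (-0.12, limma adjusted p = 0.50), and it differed by 0.37 between dyes in Limousin itself. In Hereford muscle INHA rose, and the other 4 genes did not pass. INHBA did not pass in any comparison. A gene was called at a Benjamini-Hochberg adjusted p under 0.05 in limma over all 17061 probes. By that rule 2 of the 5 genes were called in Holstein-Friesian, where 6.45% of all probes were (3% higher and 3.45% lower), and 1 of 5 in Hereford, where 7.14% were (3.39% higher and 3.75% lower). With 5 genes such counts say little, so the genes are given singly, from ligands to mediator.

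**Figure D1:**
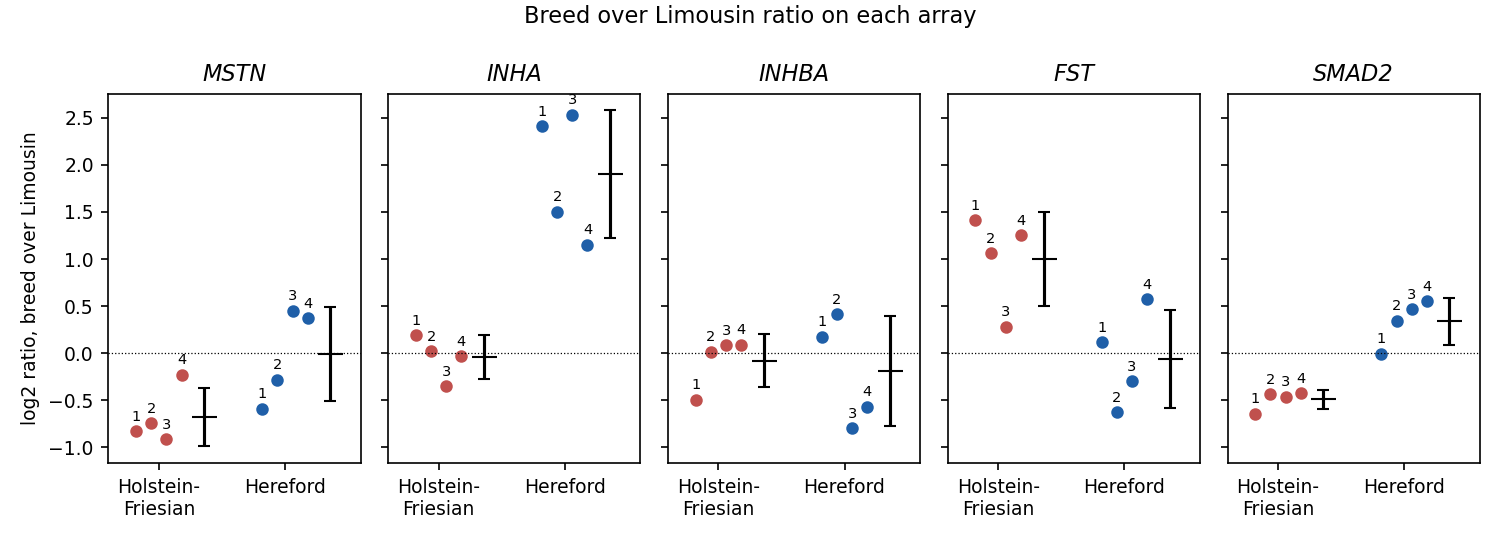
Log2 ratio of breed over Limousin on each array for the 5 genes, with the number of the Limousin bull beside each point and the mean ± SD of 4 arrays as the black bar. INHA lies between 1.15 and 2.53 on the Hereford arrays, FST between 0.28 and 1.41 on the Holstein-Friesian arrays, and MSTN between -0.91 and -0.23 on the Holstein-Friesian arrays.

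MSTN, the growth inhibitor itself, had log2 ratios of -0.83, -0.75, -0.91 and -0.23 in Holstein-Friesian over Limousin bulls 1 to 4. The mean was -0.68 (SD 0.31, n = 4), which is 1.6-fold lower on the linear scale, with a 95% interval of the fit from -1.10 to -0.25 and an adjusted p of 0.0701 in limma. All 4 arrays lay below 0, and bull 4 was the nearest to it. In Hereford the ratios over the same Limousin bulls were -0.59, -0.28, 0.45 and 0.37, so the arrays were split between lower and higher. Their mean was -0.01 (SD 0.50, n = 4, limma adjusted p = 0.981), and the 95% interval ran from -0.44 to 0.41. The difference between the breeds, Holstein-Friesian minus Hereford, was -0.67 (95% interval -1.27 to -0.06, limma adjusted p = 0.201) and did not pass. It passed with median centring (-1.03, or -0.67 relative to the median of all probes, limma adjusted p = 0.0336), and was larger without passing from processed signals (-1.46, 0.0842). It was smaller without bull 3 (-0.43, limma adjusted p = 0.489) and as the Cy3 difference from Limousin in Holstein-Friesian minus the Cy5 difference in Hereford (-0.21, 0.701).

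The Holstein-Friesian readings of MSTN were dim. The net signal was 17.5, 33.5, 23.75 and 37.25 intensity units in the 4 Holstein-Friesian bulls, against 155.5, 226.5, 309.5 and 140 in Limousin on the same arrays in Cy5. The background correction behind the reported ratio adds an offset of 50, which is above each of those Holstein-Friesian signals. Its part in the size of the ratio was not tested. With no background correction and the same loess, the Holstein-Friesian ratio was -0.88 (limma adjusted p = 0.0475). From the scanner's processed signals, in which both background and dye normalization differ, it was -1.53 (limma adjusted p = 0.0151). Both passed the threshold. Read in the same dye, Cy3, MSTN averaged 7.01 ± 0.27 log2 units in Holstein-Friesian and 7.46 ± 0.27 in Limousin (SD, n = 4 each), and the ranges overlapped, at 6.61 to 7.17 and 7.10 to 7.72. That same-dye difference was -0.45 (limma adjusted p = 0.211). Among the Limousin bulls, MSTN in Cy5 was on average 0.23 higher than in Cy3 (SD 0.36, n = 4, limma adjusted p = 0.36). Under 13 alternatives the Holstein-Friesian value stayed below 0, from -1.53 to -0.45, and it passed the threshold in 4 of them: processed signals, the deposited log ratios, no background correction and median centring. With median centring MSTN stood at -0.86 (limma adjusted p = 0.0194), or -0.66 relative to the median of all probes. That setting called 39.1% of all probes in Holstein-Friesian. Processed signals and deposited log ratios are nearly the same reading, each at -1.53 (limma adjusted p = 0.0151 and 0.0153), so they do not count as separate support.

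INHA, the alpha subunit of inhibin, had the largest change of the 5 genes. Its log2 ratios in Holstein-Friesian over Limousin bulls 1 to 4 were 0.19, 0.02, -0.35 and -0.03, on either side of 0, with a mean of -0.04 (SD 0.23, n = 4, limma adjusted p = 0.94) and an interval from -0.55 to 0.47. In Hereford over the same Limousin bulls they were 2.41, 1.5, 2.53 and 1.15, with a mean of 1.90 (SD 0.68, n = 4, limma adjusted p = 0.00816), a 3.73-fold rise. Every Holstein-Friesian array thus lay below every Hereford array. The difference of Holstein-Friesian minus Hereford was -1.94 (95% interval -2.67 to -1.22, limma adjusted p = 0.0292) and passed the test. That call was lost without each of bulls 1 to 4 in turn (-2.2 to -1.63, limma adjusted p = 0.0538 to 0.147). In that comparison 2 of 5 genes of the axis were called (INHA and SMAD2), against 2.71% of all probes.

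The INHA signal in Hereford was bright, at a net 1029, 824.25, 2767.25 and 553.25 intensity units, against 136, 225, 189.25 and 118 in Limousin on those arrays. Hereford bull 3 was the highest and bull 4 the lowest, and the lowest Hereford level still lay above every Limousin level. In the same dye, Cy5, INHA averaged 9.70 ± 0.88 log2 units in Hereford and 7.77 ± 0.35 in Limousin (SD, n = 4 each), with ranges of 8.65 to 10.78 and 7.35 to 8.06. The Limousin bulls differed between dyes by -0.02 (limma adjusted p = 0.886). Together with the ratio this fixes the same-dye difference, at 1.92 (limma adjusted p = 0.0111). Ranked by p among all probes, INHA stood at 15520 of 17061 in Holstein-Friesian and at 52 in Hereford. The call in Hereford was lost without Limousin bull 2 and its arrays (2.03, limma adjusted p = 0.0614) and when the Hereford arrays were fitted alone (1.90, 0.0617); the ratio itself stayed between 1.69 and 2.15 without each bull in turn.

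INHBA, the beta A subunit shared by activin A and inhibin A, showed no difference that could be separated from its spread. Holstein-Friesian ratios were -0.50, 0.02, 0.08 and 0.09 (mean -0.08, SD 0.28, n = 4, limma adjusted p = 0.865), with 1 array apart from the other 3. Hereford ratios were 0.17, 0.41, -0.79 and -0.57 (mean -0.19, SD 0.58, n = 4, limma adjusted p = 0.634), higher in 2 bulls and lower in 2. The intervals ran from -0.54 to 0.39 in Holstein-Friesian and from -0.66 to 0.27 in Hereford. INHA therefore rose in Hereford without a called change of this beta subunit, and whether INHA and INHBA differed in their response was not tested.

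FST, the antagonist of myostatin and activin, was the 1 gene of the 5 called higher in Holstein-Friesian. Its log2 ratios over Limousin bulls 1 to 4 were 1.41, 1.06, 0.28 and 1.25 in Holstein-Friesian, with a mean of 1.00 (SD 0.50, n = 4, limma adjusted p = 0.0401), a 2-fold rise. Array 3 was the low one. In Hereford the ratios were 0.12, -0.63, -0.30 and 0.57, split around 0, with a mean of -0.06 (SD 0.52, n = 4, limma adjusted p = 0.916) and an interval from -0.57 to 0.46. The difference of Holstein-Friesian minus Hereford was 1.06 (95% interval 0.33 to 1.79) and did not pass in limma (adjusted p = 0.113), although FST was higher against Limousin in Holstein-Friesian than in Hereford for all 4 Limousin bulls. Taken as differences paired by Limousin bull, it did not pass either (1.06, limma adjusted p = 0.0567). So a rise limited to Holstein-Friesian is not shown.

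In the same dye, Cy3, FST averaged 9.90 ± 0.38 log2 units in Holstein-Friesian and 8.92 ± 0.36 in Limousin (SD, n = 4 each). The ranges, 9.38 to 10.27 and 8.55 to 9.31, did not overlap, and the same-dye difference was 0.98 (limma adjusted p = 0.0364). In Cy5, Hereford stood at 8.86 ± 0.19 and Limousin at 8.90 ± 0.30, almost level. The Limousin bulls differed between dyes by -0.02 (SD 0.07, n = 4, limma adjusted p = 0.798), the smallest spread between dyes of the 5 genes. The FST call was lost without each bull in turn. Without bulls 1, 2, 3 or 4 the ratio was 0.87, 0.98, 1.24 and 0.92, with limma adjusted p-values of 0.123, 0.139, 0.053 and 0.141. In those fits of fewer arrays, Holstein-Friesian calls over all probes fell from 1100 to 810, 78, 275 and 127. The FST call was also lost with median centring (0.49, or 0.69 relative to the median of all probes, limma adjusted p = 0.181), with no filter (0.0519) and with the Holstein-Friesian arrays fitted alone (0.0594).

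**Figure D2:**
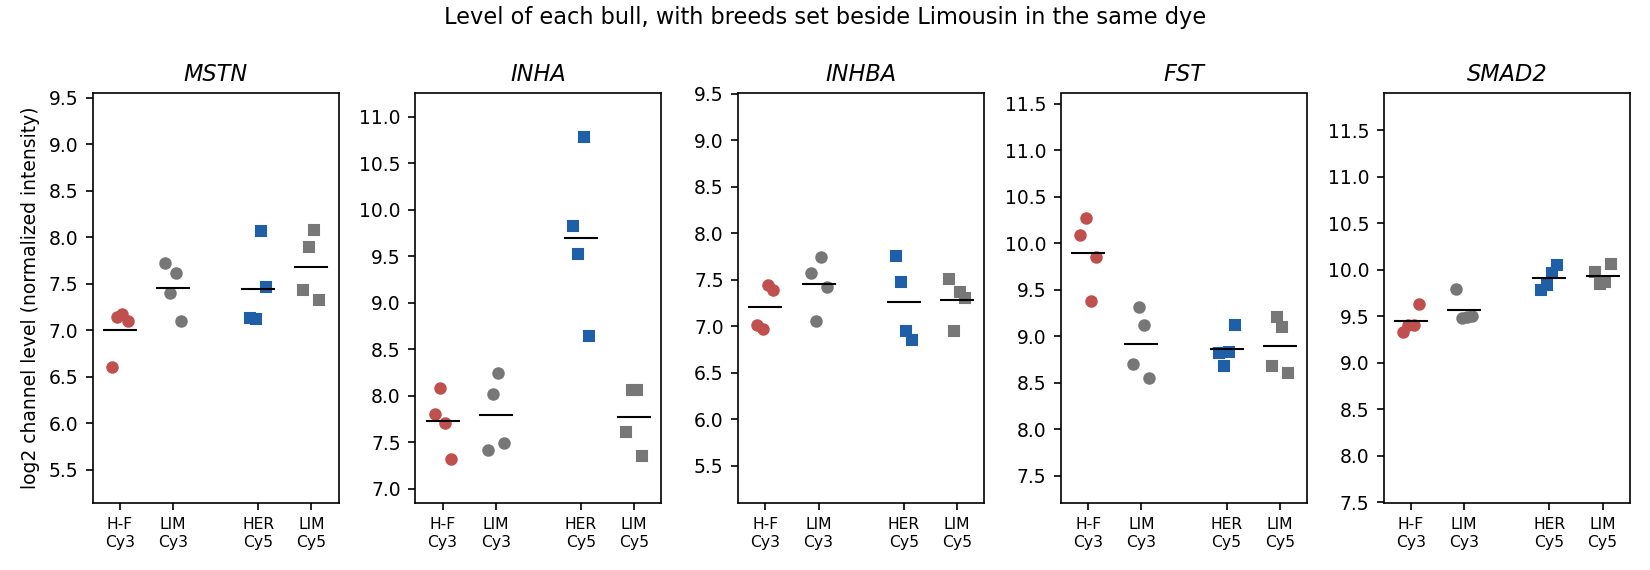
Log2 channel level of each bull after within-array loess and scaling of average intensities between arrays; each breed stands beside Limousin in the same dye, circles for Cy3 and squares for Cy5, with group means as black lines and an equal height of axis in every panel. FST in Holstein-Friesian and INHA in Hereford lie clear of Limousin, while SMAD2 overlaps Limousin in each dye, and Limousin itself stands at 9.57 in Cy3 and 9.93 in Cy5.

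SMAD2, which carries the signal of activated receptors to the nucleus, fell in the ratios of Holstein-Friesian over Limousin. Its log2 ratios were -0.64, -0.43, -0.46 and -0.42 in Holstein-Friesian (mean -0.49, SD 0.10, n = 4, limma adjusted p = 0.0244), all below 0 and close together apart from the first. In Hereford they were -0.01, 0.34, 0.47 and 0.55 (mean 0.34, SD 0.25, n = 4, limma adjusted p = 0.0661). The difference of Holstein-Friesian minus Hereford was -0.83 (95% interval -1.13 to -0.53, limma adjusted p = 0.0263). The arrays of the breeds differed in dye and slide, which the check in Limousin cannot tell apart. SMAD2 was higher in Cy5 than in Cy3 in the same Limousin bulls, by 0.19, 0.36, 0.37 and 0.56 (mean 0.37, SD 0.15, n = 4, limma adjusted p = 0.0471), in a check that called 4.40% of all probes. In the same dye SMAD2 averaged 9.44 ± 0.13 log2 units in Holstein-Friesian and 9.57 ± 0.15 in Limousin, and 9.91 ± 0.12 in Hereford and 9.93 ± 0.10 in Limousin (SD, n = 4 each). The same-dye differences were -0.12 in Holstein-Friesian (limma adjusted p = 0.50) and -0.03 in Hereford (0.907), and the first minus the second was -0.09 (0.736). Neither SMAD2 call was thus present in these same-dye differences. Without bulls 2, 3 or 4 the Holstein-Friesian ratio was as large, at -0.51, -0.50 and -0.51, but did not pass (limma adjusted p = 0.121, 0.0981 and 0.0979). The difference between the breeds was likewise -0.85, -0.80 and -0.78 without those bulls (limma adjusted p = 0.157, 0.116 and 0.177).

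The mean of both breeds over each Limousin bull, in which a dye effect of equal size on each slide drops out, addressed what the marbled breeds have in common. None of the 5 genes was called by limma in that comparison, where 0.598% of all probes were. Of the 5, 2 had an unadjusted limma p under 0.05 (INHA and FST), as had 3336 of all 17061 probes. INHA stood at 0.93 (SD 0.33, n = 4 bulls, limma adjusted p = 0.0564), higher in 4 of 4 bulls, and passed when arrays sharing a Limousin bull were treated as correlated (limma adjusted p = 0.0334); over its 11 alternatives the adjusted p ran from 0.0318 to 0.198. FST stood at 0.47 (SD 0.44, limma adjusted p = 0.24), MSTN at -0.35 (SD 0.34, 0.272), INHBA at -0.14 (SD 0.25, 0.582) and SMAD2 at -0.07 (SD 0.17, 0.712). The INHA and FST means each combine a breed with a ratio near 0 and a breed with a rise, so they are no measure of a change found in both.

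**Figure D3:**
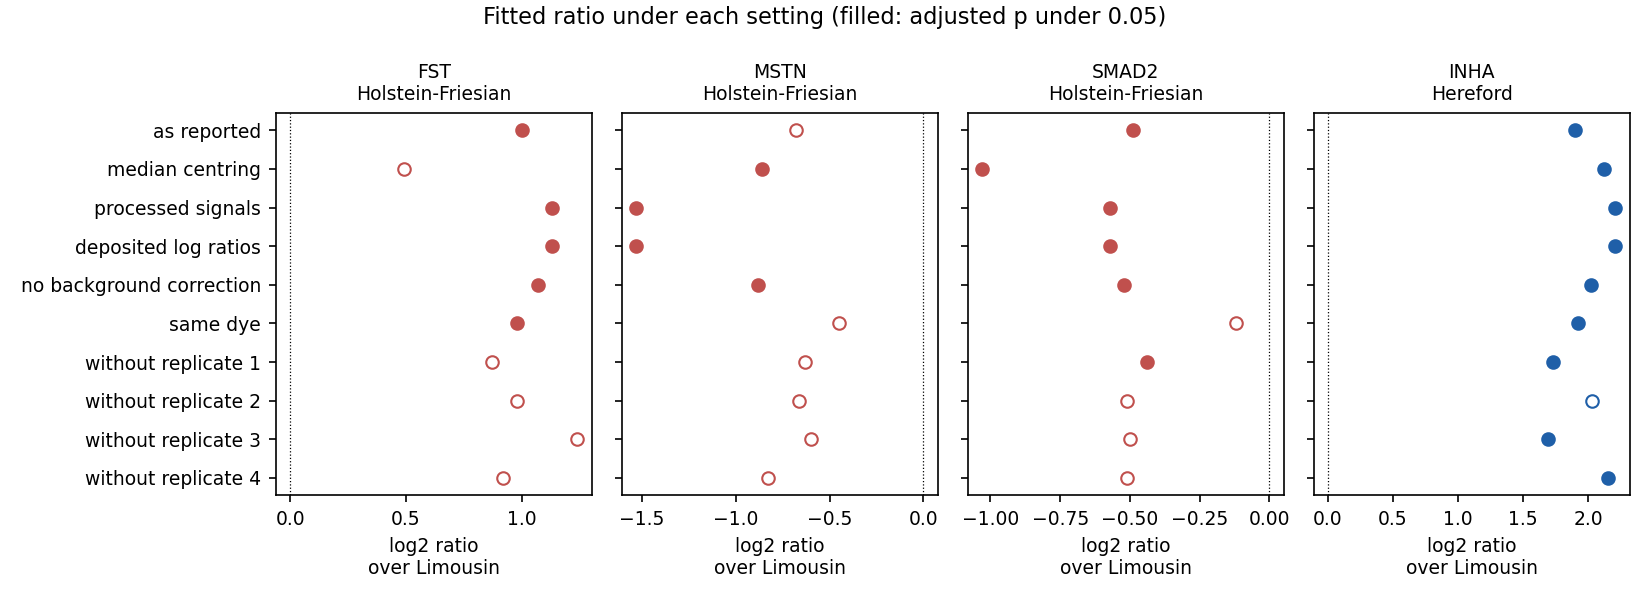
Fitted log2 ratio over Limousin of FST, MSTN and SMAD2 in Holstein-Friesian and of INHA in Hereford, as reported and under 9 other settings, with filled points for an adjusted p under 0.05 in limma. INHA lies between 1.69 and 2.21 in the settings drawn, MSTN reaches -1.53 with processed signals, and SMAD2 lies at -0.12 in the same dye.

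Other genes of the activin, TGF-beta and BMP pathways were described from 5 lists of 78 genes, of which 36 matched a probe and 34 passed the filter. In Holstein-Friesian 3 of the 34 rose and 1 fell (11.8% of them, against 6.45% of all probes), and their median was 0.04, against -0.01 over all probes. In Hereford 0 rose and 1 fell in limma (2.94% of them, against 7.14% of all probes; 6 had an unadjusted p under 0.05), with a median of -0.01, against 0.01 over all probes. In the mean of both breeds limma called 0 of the 34 (8 with an unadjusted p under 0.05). Over all 17061 probes, 4122 had an unadjusted limma p under 0.05 in Hereford and 3336 in the mean of both breeds.

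Among the other ligands (5 measured of 17 listed) TGFB3, a TGF-beta isoform, was the gene called. Its brighter probe stood at 0.12, 0.42, -0.09 and 0.32 on the Holstein-Friesian arrays and at -0.23, -0.65, -0.91 and -0.73 on the Hereford arrays, where it fell (mean -0.63, limma adjusted p = 0.025), a difference of 0.82 (limma adjusted p = 0.0487). A second, dimmer TGFB3 probe, above background in 9 of 16 readings, gave 0.04 in Hereford (limma adjusted p = 0.765), so the probes disagreed. TGFB3 in Cy5 was lower than in Cy3 in the Limousin bulls, with a difference of -0.29 (limma adjusted p = 0.0423), and its same-dye Hereford difference was -0.34 (0.172). The Hereford call was lost without bulls 2, 3 or 4 (-0.62, -0.53 and -0.59, with limma adjusted p = 0.117, 0.0695 and 0.141). So was that between the breeds (limma adjusted p = 0.238, 0.113 and 0.277). In all, 8 of 13 alternatives lost the Hereford call and 8 of 12 that between the breeds. Among them were median centring (limma adjusted p = 0.134 and 0.388) and processed signals (0.0547 and 0.062).

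Among binding and processing proteins (10 measured of 20 listed) LTBP2, an extracellular matrix protein of the latent TGF-beta binding family, rose in Holstein-Friesian. Its ratios there were 1.33, 2.61, 1.5 and 1.19 (mean 1.66, limma adjusted p = 0.0144), all well above 0, against 0.47, 0.48, -0.31 and -0.66 in Hereford. Its same-dye Holstein-Friesian difference was 1.79 (limma adjusted p = 0.0116), and the call was lost without bulls 2, 3 or 4 (1.34, 1.71 and 1.81; limma adjusted p = 0.061, 0.071 and 0.0583). Of other proteins that bind myostatin or its precursor, 3 that did not pass were named after their values were seen. In Holstein-Friesian and Hereford the ratios were 0.30 and 0.32 for WFIKKN2, 0.36 and 0.05 for FSTL3, and 0.23 and -0.20 for TCAP. The rest of the list did not pass either. In Holstein-Friesian it stood at 0.23 (DCN), 0.05 (BGN), 0.03 (GREM1), -0.01 (LTBP3), -0.09 (FMOD) and -0.30 (FSTL1). The median of the whole list was 0.14 in Holstein-Friesian and -0.11 in Hereford.

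No receptor of 8 measured (13 listed) was called by limma in either breed, and 2 in each had an unadjusted p under 0.05. Over all 17061 probes, 4011 had such a p in Holstein-Friesian and 4122 in Hereford. The medians of the 8 receptors were -0.13 in Holstein-Friesian and 0.06 in Hereford. The receptors with the smallest p in the mean of both breeds were ACVR1, a type I receptor, at -0.33 (limma adjusted p = 0.149), and BAMBI, a pseudoreceptor without kinase activity, at -0.25 (limma adjusted p = 0.374). Among SMADs and their regulators (3 measured of 16 listed) the phosphatase PPM1A fell in Holstein-Friesian, with ratios of -1.04, -0.44, -0.53 and -0.59 (mean -0.65, limma adjusted p = 0.0166). It was also below 0 on all 4 Hereford arrays, from -0.52 to -0.11, without passing. The same-dye Holstein-Friesian difference was -0.53 and no longer passed (limma adjusted p = 0.103), nor did the ratio without bulls 2, 3 or 4, although it was as large (-0.72, -0.69 and -0.67; limma adjusted p = 0.0728, 0.0622 and 0.0983).

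Of the genes listed as targets of these pathways (8 measured of 12), ID1 and TRIM63 rose in Holstein-Friesian. ID1, an inhibitor of basic helix-loop-helix factors and a classical target of BMP signalling, had ratios of 1.84, 1.5, 2.28 and 2.18 there (mean 1.95, limma adjusted p = 0.00547), and of 0.76, 0.48, 1.22 and -0.18 in Hereford. The ID1 call was kept under all 13 alternatives tried, including the same dye (1.59, limma adjusted p = 0.0108). TRIM63, a ubiquitin ligase of muscle atrophy, had ratios of 1.49, 1.54, 0.28 and 0.97 in Holstein-Friesian (mean 1.07, limma adjusted p = 0.0301), and of 0.10, -0.17, -0.17 and 0.63 in Hereford. Read in 1 dye, it stood at 1.23 (limma adjusted p = 0.0151), and it was lost with median centring (0.40, limma adjusted p = 0.335), with the Holstein-Friesian arrays alone (0.0686) and without bulls 1, 2 or 4 (0.93, 0.91 and 1.10; limma adjusted p = 0.0995, 0.153 and 0.111). The myogenic factors MYOG and MYOD1 stood at the low end of this list in Holstein-Friesian, at -1.13 (limma adjusted p = 0.0706) and -0.92 (0.14), and were named after their values were seen.

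**Figure D4:**
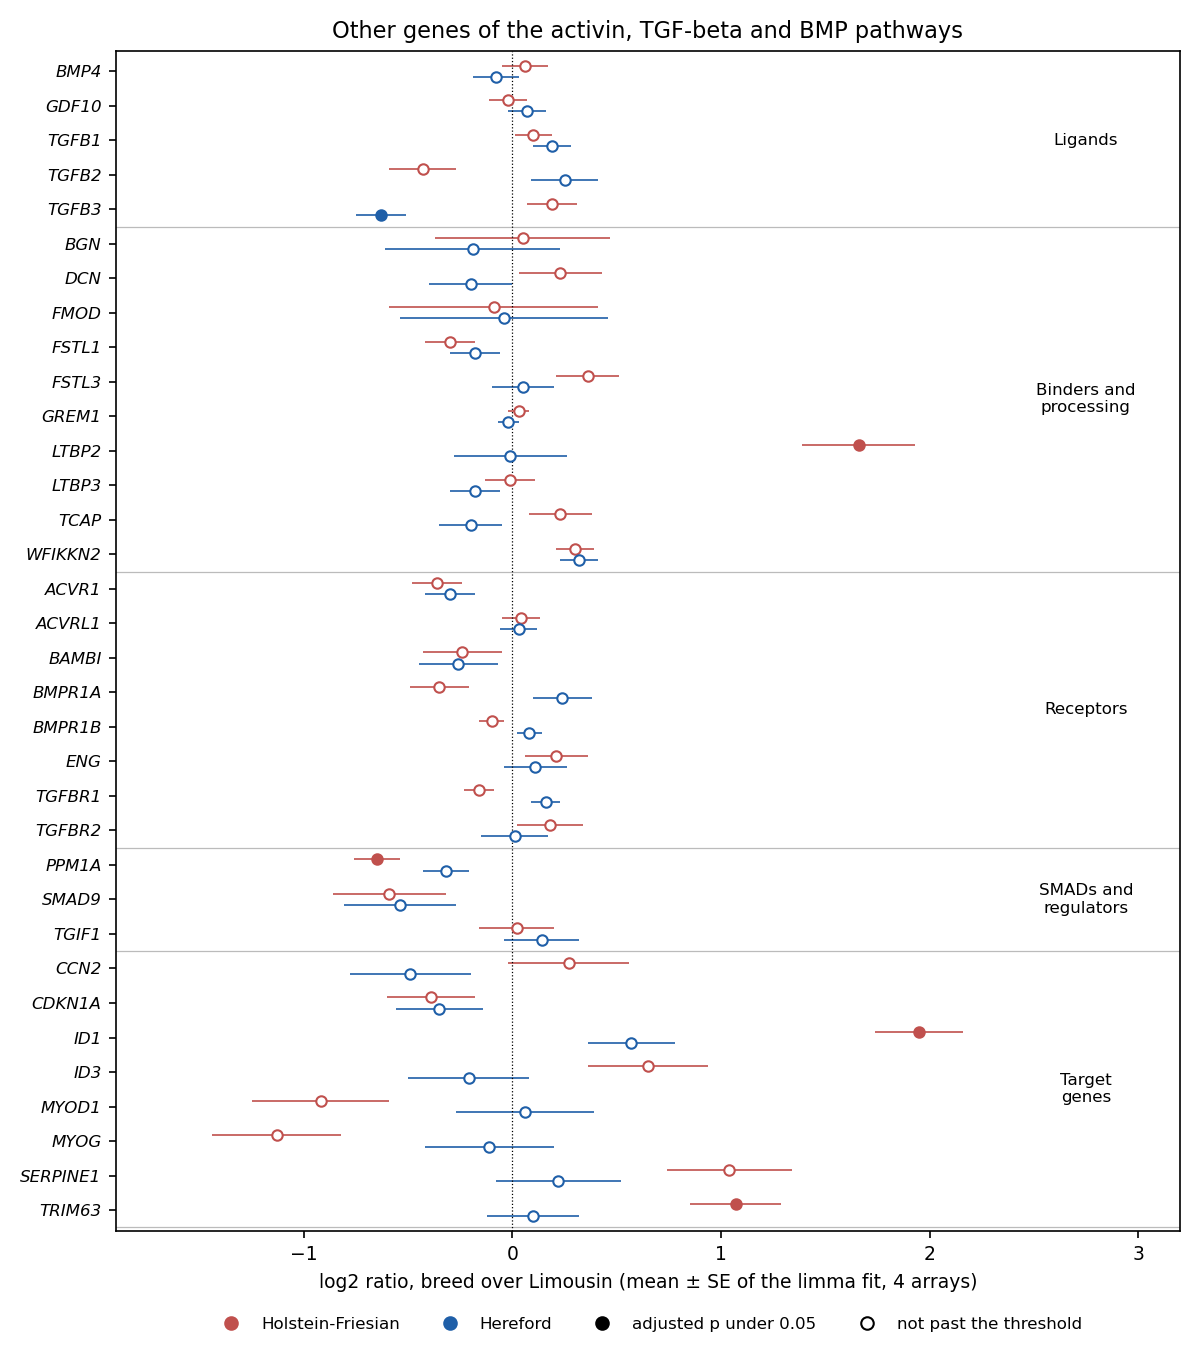
Mean log2 ratio over Limousin, with the SE of the limma fit over 4 arrays, of 34 other pathway genes grouped by role, for Holstein-Friesian (red) and Hereford (blue), filled where the adjusted p was under 0.05. ID1, LTBP2 and TRIM63 stand to the right in Holstein-Friesian at 1.95, 1.66 and 1.07.

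Markers of fibre type and of other cells were read in the same way, and whether they varied with the genes of the axis was not tested. Of 6 slow-twitch fibre genes measured, 1 rose in Holstein-Friesian (where 3% of all probes did) and 4 in Hereford (where 3.39% did). All 6 were higher with an unadjusted p under 0.05 in each breed, with medians of 0.95 in Holstein-Friesian and 1.37 in Hereford, and limma called 0 of 6 in the difference between the breeds (1 with an unadjusted p under 0.05). Their mean level was 14.92 to 16.01 log2 units in Holstein-Friesian and 15.14 to 15.85 in Hereford, against 13.93 to 14.31 in Limousin in Cy3 and 14.10 to 14.70 in Limousin in Cy5. Of 6 fibroblast genes (among them DCN, which the list of binding proteins also holds), COL3A1 fell in Holstein-Friesian (-2.53) and 0 were called in Hereford by limma. The others did not pass in Holstein-Friesian, with COL1A2 (-1.29), COL1A1 (-1.14) and LUM (-0.66) below 0 and DCN (0.23) and PDGFRA (0.27) above 0. The list's level was 10.58 to 11.71 in Holstein-Friesian, against 11.89 to 12.37 in Limousin in Cy3. In Hereford the fibroblast level was 11.67 to 12.52, against 11.66 to 12.41 in Limousin in Cy5. Of 7 adipocyte genes, CFD rose in Holstein-Friesian (1.17), while the other 6 ranged from -0.64 (FABP4) to 0.14 (PPARG) there without passing, and the median of the list was -0.02. The list had levels of 8.21 to 8.59 in Holstein-Friesian and 8.08 to 9.18 in Hereford, against 8.01 to 8.72 in Limousin in Cy3 and 7.98 to 8.74 in Limousin in Cy5. Of 3 satellite cell genes, ITGA7 fell in Holstein-Friesian (-0.36), while MYF5 (-0.22) and CDH15 (0.03) did not pass there. Of the 7 skeletal muscle genes MB (-1.02) and TNNC2 (-0.68) fell in Holstein-Friesian. The others ranged there from -0.55 (ACTA1) to 0.51 (MYH2) without passing, and the median of the list was -0.08. No marker of macrophages (3 measured), endothelium (2) or blood (2) was called by limma in either breed, and 1 in Holstein-Friesian and 2 in Hereford had an unadjusted p under 0.05. Over all 17061 probes, 4011 had an unadjusted limma p under 0.05 in Holstein-Friesian, 4122 in Hereford and 3592 in their difference. The part of these cells in the FST, MSTN and INHA readings was not tested.

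The genes whose 8 log2 ratios were most like those of MSTN, among 6692 other named genes, were USO1 (Pearson r = 0.98), UCHL5 (0.97), PCYT1A (0.96), UTP23 (0.94) and ACOT7 (0.94). The mean ratio was -0.68 in Holstein-Friesian and 0.14 in Hereford for ACOT7, and -0.24 and 0.12 for USO1. For INHA they were MYBPC3 (0.98), MCHR1 (0.97), MYL9 (0.96), CENPS (0.96) and RND2 (0.95). Of these MYL9 stood at 0.83 in Hereford, while MYBPC3 stood at 0.06, far below the 1.90 of INHA. These correlations are descriptions: pairs of arrays share a Limousin bull, the INHA ratios fall into 2 groups by breed, and the highest of all 6692 values were chosen.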

How the data were processed

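Spot brightness was extracted from slide scans by version 10.7.3.1 of Agilent Feature Extraction, per the submitters' processing notes; the array was designed on build Btau_3.1, per the file headers. The deposited scanner output held intensity per spot and channel, as the median over pixels of spot and local background, and processed intensity, background-subtracted and dye-normalized per the file headers. Log10 ratios (Cy5 over Cy3) made up the deposited table of values, and all 44407 spots matched the scanner's own log ratio within 1e-06; every column had a median of 0. The series text speaks of a swap of dyes for Holstein-Friesian, but the deposited ratios there still run Limousin over Holstein-Friesian, by the dyes in the titles; they were turned here, so that all ratios are breed over Limousin. No value column was left unmapped (0).

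Median signals were background-corrected with normexp (offset 50) and normalized within arrays by loess (span 0.3, controls given no weight). Control and outlier spots were left out, and the spots of a probe were averaged. The filter kept probes well above background in at least 4 of 16 readings (array and channel), with a share of 0.5 or more of the spots needed for a reading. Probes were named through RefSeq transcripts (8297 probes, 7788 genes; the assembly behind that table, ARS-UCD2.0, gave no coordinates here), and each gene took the kept probe of highest mean intensity. Single channel levels followed loess and Aquantile.

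Breed means over 8 arrays, and their difference, were tested with lmFit and eBayes of limma 3.58.1 in R 4.3.3; the mean of both breeds used 4 values, 1 per Limousin bull. The p-values, each for a change in either direction, were adjusted by Benjamini-Hochberg over 17061 probes. The source labels give the same Limousin bull on same-numbered arrays, so the numbers pair the arrays; deviations from the breed means of paired arrays correlated at 0.415, 0.273, 0.50 and 0.0987. Bulls are biological replicates per the labels. Pathway genes were named if called, up to 6 a comparison, with the 2 of smallest p where a list had none. The genes of the axis, the lists and the tests were chosen with earlier results of these data known. The fitting code was tested on simulated data. Alternatives changed the normalization, signal, background, filter, bulls, block, arrays fitted and dye. Figures were drawn with matplotlib 3.10.9.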

Additional observations from a re-analysis of the deposited data

Results flagged for a closer look

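INHA differed between the breeds, with a tested difference of -1.94 for Holstein-Friesian minus Hereford, and the Cy3 difference from Limousin in Holstein-Friesian minus the Cy5 difference from Limousin in Hereford was -1.99 (limma adjusted p = 0.0376). No dye held both of these breeds. SMAD2 differed by -0.83 in the same test, and by -0.09 (limma adjusted p = 0.736) between those same-dye differences. TGFB3 differed by 0.82 on its brighter probe, by 0.24 (limma adjusted p = 0.492) between the same-dye differences, and its dimmer probe gave -0.12 (limma adjusted p = 0.439). For 2 genes a single Holstein-Friesian array stood far from the other 3, array 1 in both: INHBA at -0.50, where the others were 0.02 to 0.09, and SMAD2 at -0.64, where the others were -0.46 to -0.42. Chance flags about 1 in 20 groups of 4 arrays in this way.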

How the results depend on the processing

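Of 245 results of the 5 genes under an alternative, 198 kept their direction and side of the threshold, 21 lost a call, 11 gained one and 15 changed sign. Median centring in place of loess shifted the median of all probes to -0.20 in Holstein-Friesian, to 0.10 in Hereford and to -0.36 in their difference. It called 6678 probes in Holstein-Friesian (29% higher, against 46.5% as reported), 315 in Hereford (87% higher, against 47.5%), 6219 in the difference (21.9% higher, against 42.5%) and 950 in the mean of both breeds (23.1% higher, against 53.9%). The signs that turned with it were MSTN (0.17) and FST (0.16) in Hereford, or 0.07 and 0.06 relative to all probes, and INHBA in the difference (-0.14, or 0.22 relative to all probes). Processed signals called 2157 probes in Holstein-Friesian, 974 in the difference and 444 in the mean, and the deposited log ratios 2129, 979 and 438. In the mean of both breeds no background correction called 222, all 16 readings above background 371 and no filter 42. The Hereford arrays alone called 27. Same-dye differences from Limousin called 683 in Hereford and, between the breeds' same-dye differences, 231, and INHBA in the difference (-0.22) and SMAD2 in Hereford (-0.03) changed sign.

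With the Limousin bull as a replicate block (consensus correlation 0.305; paired differences for the breeds' difference) 701 probes were called in the difference and 910 in the mean, INHA among those in the mean; no other call on the 5 genes changed. Leaving out each bull in turn gave 78 to 810 calls in Holstein-Friesian, 30 to 1055 in Hereford, 0 to 457 in the difference and 0 to 1 in the mean, with fewer arrays in the fit, against 1100, 1218, 463 and 102 as reported. Where limma called 0, 2217 to 3340 probes had an unadjusted p under 0.05. Signs turned within the ranges without 1 bull for MSTN (-0.17 to 0.18), FST (-0.27 to 0.13) and INHBA (-0.40 to 0.01) in Hereford, for INHBA (-0.13 to 0.06) and INHA (-0.12 to 0.06) in Holstein-Friesian, for INHBA in the difference (-0.14 to 0.38) and for SMAD2 in the mean (-0.12 to 0.01). The cause of these changes was not tested. Each of the 5 genes had 1 probe, so a mean over probes could give no other value. Signal over background was lowest in Holstein-Friesian and limits MSTN and INHBA most.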
